A study of Homo sapiens with 4 samples.

Results

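Transcripts of 10 genes for secreted factors were followed in 2 pancreatic cancer cell lines after treatment with cannabichromene (CBC), a cannabinoid of hemp. The genes were taken by symbol from a list of angiogenic and hormone-like stress factors, and all 10 matched 1 of the 58233 Ensembl identifiers in the count table. They were VEGFA, VEGFB, VEGFC, ADM, ADM2, ANGPTL4, STC1, STC2, FGF21 and FGF19. MIA PaCa-2 and PANC-1 cells come from established human lines, recorded as wild type in the sample records. Each line was kept for 24 h with CBC or with PBS, the CBC dose being 35 μM for MIA PaCa-2 and 30 μM for PANC-1 cells. The doses come from the methods section, which dissolves CBC in acetonitrile, and speaks of a vehicle control, whereas the records name PBS. Whether the PBS wells held the solvent is not clear from these sources, and a part of the solvent in the results was not tested. Polyadenylated RNA was sequenced from 1 library per condition, 4 in all, so a change within a line has no replicate check. In whole cultures, fewer cells making a transcript and less of it per cell cannot be told apart either. The authors report more Annexin V-positive cells, a mark of cell death, after CBC in both lines, with the larger share in MIA PaCa-2. A part of cell death in the results was not tested.

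The vascular endothelial growth factors are ligands of receptor tyrosine kinases on endothelial cells. VEGF-A drives the sprouting of blood vessels, VEGF-C mainly that of lymphatic vessels, and VEGF-B has a weaker angiogenic role. Adrenomedullin (ADM) and its relative ADM2 are peptide hormones that dilate vessels, ANGPTL4 inhibits lipoprotein lipase, and the stanniocalcins STC1 and STC2 are glycoprotein hormones that restrain the protease PAPP-A. FGF19 and FGF21 are endocrine fibroblast growth factors that need the co-receptor KLB. Hypoxia-inducible factors (HIFs) raise VEGFA, ADM and ANGPTL4 in many cells, and ATF4, the transcription factor of the integrated stress response, is known to raise VEGFA, FGF21, ADM2 and STC2.

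The libraries held 21742775 to 27903667 counts on genes. Levels are given in CPM (per-million-scaled counts) on library sizes scaled by the trimmed mean of M-values (TMM), on which 1 count was worth 0.0366 to 0.0450 CPM. A count of 0 allows a level of up to 3 counts, or 0.110 to 0.135 CPM. These limits and all intervals below cover counting error only. The keratins KRT8, KRT18 and KRT19 were abundant in all 4 libraries, while EPCAM and CDH1, genes of epithelial junctions, had 0 or 1 count in both MIA PaCa-2 libraries. A further keratin on the list, KRT7, was low, with 2 and 52 counts in MIA PaCa-2 and 49 and 58 in PANC-1 cells (PBS before CBC). CDKN2A, which both lines are known to lack, had 0 counts throughout, while its neighbour MTAP, placed on the same list of deleted genes, had 0 in MIA PaCa-2 but 42 and 52 in PANC-1 cells. Summed over 8 markers, endothelium reached 0.440 to 2.25 CPM, and 6 blood cell markers reached 0.878 to 5.67 CPM. The 6 fibroblast markers summed to 368 and 96.1 CPM in MIA PaCa-2, nearly all of it COL1A2, and to 136 and 47.1 CPM in PANC-1, nearly all COL1A1, with DCN, LUM and FAP at 0. COL1A2 was called lower with CBC across lines (log2 fold change -1.84, adjusted p = 0.0364, edgeR quasi-likelihood test), on reads of MIA PaCa-2 but for 1 count. The 7 epithelial markers summed to 3595 and 2647 CPM and to 2189 and 1355 CPM in the same order, so both sums were lower with CBC in each line, and their part in the results was not tested. Mitochondrial counts made up 5.81% and 3.86% in MIA PaCa-2 and 4.63% and 2.42% in PANC-1 cells, lower with CBC in each, and their part in the results was not tested.

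RefSeq promoter sequences on GRCh38.p14 were at hand for 7 of the 10 genes. VEGFA, STC1 and FGF19 had none, so their promoters were not searched. Start sites here are those of RefSeq, whereas the gene spans given below are those of GENCODE. The window of STC2 thus overlaps its gene span, and that of ANGPTL4 (chr19:8363905-8364154) lies inside its span. The 250 bases before the start site are shown for 4 of the 7 genes that stand for the different patterns found. FGF21 was read in a single library, ADM2 had counts in 3 libraries and more after CBC in both lines, ADM went opposite ways in the 2 lines, and STC2 had 1 count in each MIA PaCa-2 library against 6652 and 12538 in PANC-1 cells. The windows are chr19:48755274-48755523 on the plus strand for FGF21, chr22:50481293-50481542 on the plus strand for ADM2, chr11:10304823-10305072 on the plus strand for ADM and chr5:173328415-173328664 on the minus strand for STC2. Each is written 5′ to 3′ along its gene, and capitals mark the matches described after the sequences.
FGF21: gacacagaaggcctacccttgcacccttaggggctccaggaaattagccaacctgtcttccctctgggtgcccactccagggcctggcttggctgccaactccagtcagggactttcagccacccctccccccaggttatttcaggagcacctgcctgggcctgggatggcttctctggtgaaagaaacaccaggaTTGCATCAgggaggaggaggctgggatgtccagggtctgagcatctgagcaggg
ADM2: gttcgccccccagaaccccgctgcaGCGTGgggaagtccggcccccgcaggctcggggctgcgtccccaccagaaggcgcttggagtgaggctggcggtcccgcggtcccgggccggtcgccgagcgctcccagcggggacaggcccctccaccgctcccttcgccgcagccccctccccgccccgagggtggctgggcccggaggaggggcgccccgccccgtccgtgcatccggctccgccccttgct
ADM: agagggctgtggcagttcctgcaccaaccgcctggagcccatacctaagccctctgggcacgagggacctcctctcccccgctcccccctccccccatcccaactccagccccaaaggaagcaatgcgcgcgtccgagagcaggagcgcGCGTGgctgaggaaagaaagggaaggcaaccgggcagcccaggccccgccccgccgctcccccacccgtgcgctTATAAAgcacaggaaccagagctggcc
STC2: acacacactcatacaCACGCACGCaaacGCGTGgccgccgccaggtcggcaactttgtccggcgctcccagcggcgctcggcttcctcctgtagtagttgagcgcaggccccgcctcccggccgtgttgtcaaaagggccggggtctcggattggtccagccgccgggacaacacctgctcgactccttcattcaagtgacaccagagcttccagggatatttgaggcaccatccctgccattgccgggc

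3 short motifs were searched on both strands and TATAAA on the strand of the gene. TGATGNAA is the core of the composite site bound by ATF4 with C/EBP factors, and ACGTG and GCGTG are forms of the core bound by HIFs. The forms of the HIF core do not overlap each other in the windows shown, although 2 matches of GCGTG in STC2 overlap by 1 base. FGF21 alone of the 7 windows held TGATGNAA, on the strand opposite to the gene, in the capitals TTGCATCA that begin 54 bases before the start. That motif was in 3.14% of 35116 promoter windows of this length. ACGTG or GCGTG was in 6 of the 7 windows, all but that of FGF21, and in 43.2% of all windows. ADM and ANGPTL4 also had TATAAA, at 27 and 29 bases before the start, as had 6.8% of all windows. The FGF21 window held no CpG dinucleotide, against 29 in ADM2, 22 in STC2 and 16 in ADM. These matches describe the letters in the windows and are not evidence of binding.

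Changes within a line are log2 fold changes of CBC over PBS after TMM scaling, with a prior count of 2 in edgeR. A gene was called where this value exceeded 1 or was under -1, provided that either library or both reached 1 CPM. In MIA PaCa-2 cells 7 of the 10 genes passed this filter and 4 were called higher (VEGFA, ADM, STC1 and FGF21), where 11.5% of all 14001 tested genes were higher and 8.96% lower. STC1 and FGF21 passed the filter only through the CBC library, so their place among the called genes follows in part from the filter. In PANC-1 cells 8 genes passed and 3 were called higher (VEGFA, ADM2 and STC1), where 7.72% of 14091 tested genes were higher and 7.03% lower. None of the 10 genes was called lower in either line. The 10 genes were chosen with earlier results of these data known, so the shares over all genes do not test the list. VEGFA and STC1 were called higher in both lines, as were 3.33% of the 12502 genes tested in both. Across the 2 lines, the quasi-likelihood test of edgeR, blocked by line, left 1 residual degree of freedom and tested 16381 genes, 8 of the 10 among them. It called 2 of them higher (VEGFA and ADM2), against 2.26% of all genes tested higher and 2.45% lower, at a Benjamini-Hochberg adjusted p under 0.05. It called 0 of the 8 lower, and DESeq2 also called VEGFA and ADM2. An unadjusted p under 0.05 was found for 3 of the 8 (STC1 besides), and for 3428 of all 16381 genes tested. The plot of levels by library and the plot of changes with their intervals show the values.

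**Figure D1:**
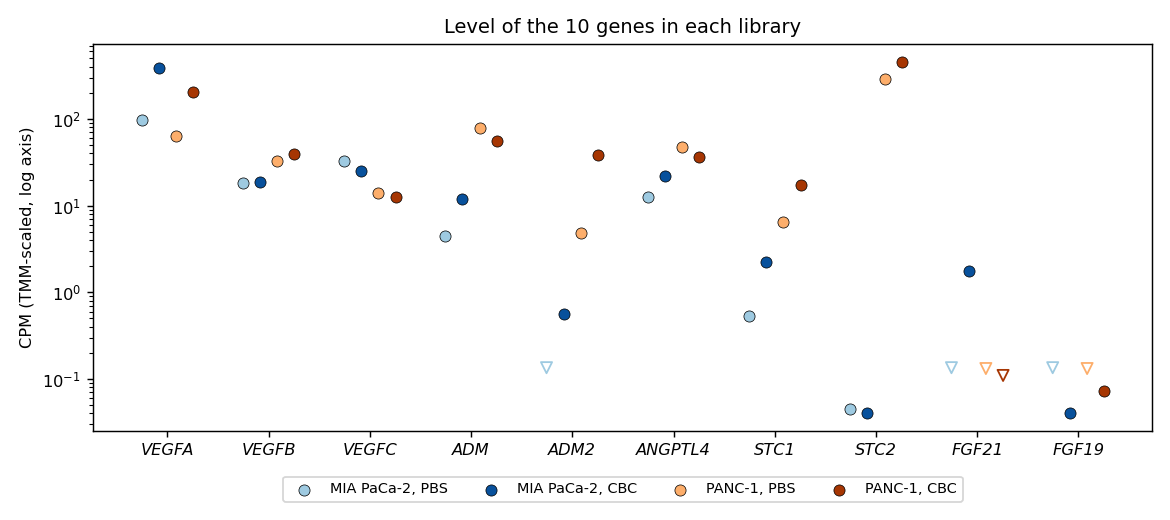
Level of each gene in the 4 libraries, in TMM-scaled CPM on a log axis, with 1 point per library. Open triangles mark libraries with 0 counts, drawn at the limit of 3 counts; FGF21 has a point only for MIA PaCa-2 with CBC, and STC2 differs between the lines by more than any other gene.

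VEGFA (ENSG00000112715, chromosome 6, 43770184 to 43786487 on GRCh38) rose in both lines. It had 2172 counts in PBS and 9606 in CBC in MIA PaCa-2, and 1447 and 5612 in PANC-1. Both CBC libraries, at 388 and 205 CPM, lay above both PBS libraries, at 97.7 and 63.6 CPM. The scaled count ratio was 3.98 (95% interval 3.79 to 4.17) in MIA PaCa-2 and 3.23 (3.05 to 3.42) in PANC-1 cells. Across both lines its log2 fold change was 1.85 (standard error 0.20, adjusted p = 0.00809, edgeR quasi-likelihood test), and it was higher in 2 of 2 lines. Without the block for cell line the log2 fold change was 1.89 with an adjusted p of 1, so the call rests on the pairing by line. A long noncoding RNA on the other strand shares 188 of its exonic bases but had at most 2 counts in any library.

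The other VEGF ligands changed by less than 2-fold in both lines. VEGFB (ENSG00000173511, chromosome 11, 64234584 to 64239264) had 408 and 459 counts in MIA PaCa-2 and 744 and 1082 in PANC-1 cells (PBS before CBC). Its log2 fold changes were 0.02 (interval -0.18 to 0.21) and 0.27 (0.14 to 0.41). VEGFC (ENSG00000150630, chromosome 4, 176683538 to 176792922) had 725 and 614 counts in MIA PaCa-2 and 317 and 343 in PANC-1 cells, log2 fold changes of -0.39 (-0.55 to -0.24) and -0.15 (-0.38 to 0.07). Neither gene passed the test across lines, with adjusted p of 0.780 for VEGFB and 0.624 for VEGFC (edgeR quasi-likelihood test). At baseline VEGFC was the 1 gene of the 10 called lower in PANC-1 than in MIA PaCa-2 cells, with a log2 difference of -1.22.

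Levels of different genes were compared per length, as TPM (per-million-scaled transcript levels), computed over the length of the canonical transcript. VEGFA made up 52.4% of the summed TPM of the VEGF ligands in the MIA PaCa-2 control and 83.5% after CBC. Its share in PANC-1 cells was 42.1% before and 67.4% after. The sum of VEGFA, VEGFB and VEGFC was 117 and 312 TPM in MIA PaCa-2 and 95.4 and 210 TPM in PANC-1 cells, PBS before CBC. In the stacked plot of VEGF ligands most of the difference is VEGFA, and in PANC-1 cells VEGFB was also higher, at 41.2 TPM without and 54.7 with CBC. VEGFA has many annotated isoforms, and over all its annotated exons, an alternative chosen after seeing the data, its shares were 23.7% and 58.7% in MIA PaCa-2 and 16.7% and 36.4% in PANC-1 cells, lower but in the same order.

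**Figure D2:**
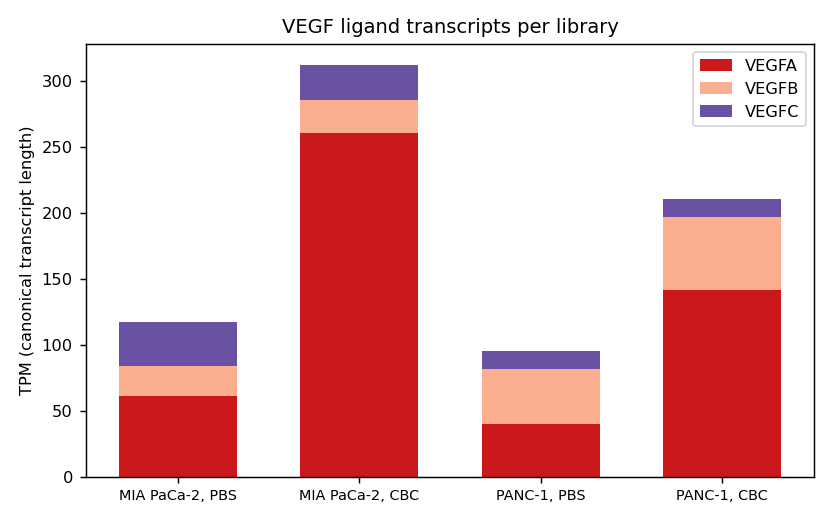
Stacked TPM (canonical transcript length) of VEGFA, VEGFB and VEGFC, 1 bar per library. The summed level is 117 and 312 TPM in MIA PaCa-2 and 95.4 and 210 TPM in PANC-1 cells (PBS before CBC), the VEGFA segment grows by the most, and the VEGFB segment is also larger with CBC in PANC-1, at 41.2 and 54.7 TPM.

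The adrenomedullin genes behaved differently from each other. ADM2 (ENSG00000128165, chromosome 22, 50481543 to 50486440) had 0 counts in PBS and 14 in CBC in MIA PaCa-2, and 111 and 1055 in PANC-1. In PANC-1 cells the scaled ratio was 7.91 (6.50 to 9.71), the largest change of the 8 genes tested in that line. In MIA PaCa-2 cells the CBC level, 0.566 CPM, was under the filter of 1 CPM and at least 4.20-fold higher than the 3 counts that 0 allows in the control, and the counting interval of the ratio, which also covers the error of the 14 counts, began at 2.98. Across lines its log2 fold change was 3.18 (standard error 0.53, adjusted p = 0.0213, edgeR quasi-likelihood test), higher in 2 of 2 lines, and without the block the adjusted p was 1. SBF1, a gene on the other strand that shares 131 exonic bases (3.05%) with ADM2, changed on the log2 scale by -0.05 in MIA PaCa-2 and 0.41 in PANC-1. Whether the counting used strand is not stated in the sources used here.

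ADM (ENSG00000148926, chromosome 11, 10305073 to 10307397) had 99 and 295 counts in MIA PaCa-2 and 1785 and 1525 in PANC-1 cells (PBS before CBC). It was higher with CBC in MIA PaCa-2 cells, with a ratio of 2.68 (2.13 to 3.40), and lower in PANC-1 cells, with a ratio of 0.711 (0.664 to 0.762). The log2 fold changes of 1.40 and -0.49 differed by 1.90 between the lines. Across lines the log2 fold change was 0.41 (adjusted p = 0.652, edgeR quasi-likelihood test). Even after CBC, ADM in MIA PaCa-2 cells, at 11.9 CPM, stayed below both PANC-1 libraries, at 78.5 and 55.8 CPM.

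ANGPTL4 (ENSG00000167772, chromosome 19, 8363289 to 8374370) had the same order of libraries as ADM. Its counts were 283 and 546 in MIA PaCa-2 and 1091 and 1000 in PANC-1 cells. The ratio was 1.73 (1.50 to 2.01) in MIA PaCa-2 and 0.763 (0.699 to 0.832) in PANC-1 cells, neither past the threshold. Opposite signs in the 2 lines, as in ADM and ANGPTL4, were found in 30.1% of the 12502 genes tested in both lines. The difference between the lines cannot be tested with 1 library per condition.

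**Figure D3:**
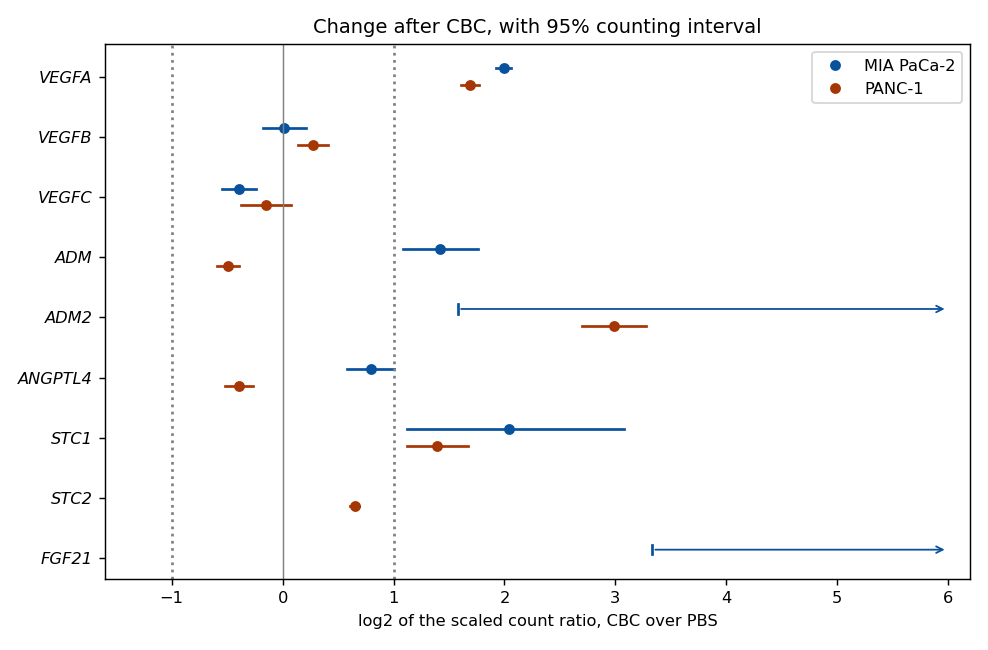
log2 of the scaled count ratio, CBC over PBS, in each line for genes with at least 5 counts in the 2 libraries together; bars are exact 95% counting intervals, arrows mark intervals with no upper end because the control had 0 counts, and dotted lines mark a 2-fold change. VEGFA, STC1 and ADM2 lie past 2-fold in both lines, whereas ADM and ANGPTL4 lie on opposite sides of 0.

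The stanniocalcins were both higher after CBC where they were read. STC1 (ENSG00000159167) had 12 and 55 counts in MIA PaCa-2 and 148 and 467 in PANC-1 cells, ratios of 4.12 (2.18 to 8.45) and 2.63 (2.18 to 3.18). Each interval lay past a 2-fold change, yet the test across lines did not call it (log2 fold change 1.65, standard error 0.42, adjusted p = 0.0689, edgeR quasi-likelihood test), although it was higher in 2 of 2 lines. Over the alternatives its adjusted p ran from 0.00355 without a filter on low counts to 1 without the block.

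STC2 (ENSG00000113739, chromosome 5, 173314723 to 173328447) had 1 count in each MIA PaCa-2 library. In PANC-1 cells it had 6652 counts with PBS and 12538 with CBC, 293 and 459 CPM, and per length the highest level of the 10 genes in both libraries. The ratio in PANC-1 cells was 1.57 (1.52 to 1.62), below the threshold of 2-fold. The test across lines, in which nearly all reads came from PANC-1 cells, gave a log2 fold change of 0.61 (standard error 0.27, adjusted p = 0.246, edgeR quasi-likelihood test). No fold is given for MIA PaCa-2 cells, where both libraries were under the limit of 3 counts.

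The endocrine FGFs were near or under the detection limit. FGF21 (ENSG00000105550, chromosome 19, 48755524 to 48758333) had 0 counts in 3 libraries and 43 in CBC-treated MIA PaCa-2 cells, or 1.74 CPM. That level was at least 12.9-fold higher than the 3 counts that 0 allows in the MIA PaCa-2 control, and the counting interval of the ratio began at 10.04. Both PANC-1 libraries had 0 counts, which allows up to 0.132 and 0.110 CPM without and with CBC. No other annotated gene overlaps FGF21. The filter of the test across lines left it out, and without that filter edgeR's test called it (adjusted p = 0.00490), on reads of a single library. FGF19 (ENSG00000162344, chromosome 11, 69698238 to 69704022) had 0 and 1 count in MIA PaCa-2 and 0 and 2 in PANC-1 cells, so a change was not detectable at this depth.

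The lines already differed at baseline. Between the PBS libraries, 5 of the 8 genes that reached 1 CPM in either were called higher in PANC-1 cells (ADM, ADM2, ANGPTL4, STC1 and STC2) and 1, VEGFC, lower, where 24% of the 14805 genes tested were higher and 17.9% lower. ADM2, STC1 and STC2 passed the filter through the PANC-1 library alone. STC2 had a scaled ratio of 6506, known only within 1167 to 257003 because the MIA PaCa-2 control had 1 count. ADM was 17.6-fold (14.4 to 21.8), STC1 12.1-fold (6.70 to 23.9) and ANGPTL4 3.77-fold (3.31 to 4.31) higher in the PANC-1 control. ADM2 had 111 counts against 0, at least 36.2-fold higher than the limit of 3 counts, and the 95% counting interval of the ratio, which also covers the error of the 111 counts, began at 28.9. VEGFA was lower in PANC-1 cells, with a ratio of 0.652 (0.609 to 0.697), and VEGFB was higher, with a ratio of 1.78 (1.58 to 2.02), neither past the threshold.

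The same model tested the lines over both treatments. It called the 8 genes that passed its filter, some of which could pass through PANC-1 alone, 6 higher in PANC-1 (VEGFB, ADM, ADM2, ANGPTL4, STC1 and STC2) and 2 lower (VEGFA and VEGFC), where 25.1% of all genes were called higher and 21.7% lower. Adjusted p ran from 5.16e-06 for STC2, at a log2 difference of 12.89, to 0.0211 for VEGFB, at 0.90 (edgeR quasi-likelihood test). VEGFA was lower by a log2 difference of -0.83 (standard error 0.20, adjusted p = 0.0114, edgeR quasi-likelihood test) and lower in PANC-1 under both treatments. Without treatment as a term the same test called 3 of the genes, ADM, ADM2 and STC2.

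Per canonical transcript length, the order of the genes changed with line and treatment. In the MIA PaCa-2 control VEGFA was highest (61.3 TPM), followed by VEGFC (32.7), VEGFB (23.0), ANGPTL4 (15.4), ADM (6.75) and STC1 (0.316 TPM). After CBC VEGFA stood at 261 TPM, and ANGPTL4, VEGFC and VEGFB followed at 28.6, 26.6 and 24.9 TPM, neighbours whose ratios had intervals that included 1. ADM, FGF21, STC1 and ADM2 came after them at 19.4, 3.13, 1.39 and 0.325 TPM. In the PANC-1 control STC2 (156 TPM) and ADM (120) stood above ANGPTL4 (58.3), VEGFB (41.2), VEGFA (40.1), VEGFC, STC1 (3.83) and ADM2 (2.64 TPM). VEGFB and VEGFA did not differ beyond counting error there (ratio 1.03, interval 0.940 to 1.12). After CBC the order was STC2 (269 TPM), VEGFA (142), ADM (93.2), VEGFB (54.7), ANGPTL4 (48.7), ADM2 (22.8), VEGFC (13.8) and STC1 (11.0 TPM). The place of VEGFA depended on the length used. Over all annotated exons VEGFA, at 25.5 TPM, came after VEGFC (47.0) and VEGFB (35.1) in the MIA PaCa-2 control and was first after CBC, at 111 TPM. In PANC-1 cells on that length it was the sixth without CBC (16.7 TPM) and the fifth with it (60.9 TPM). ADM2 went from the last place to the sixth in PANC-1 cells on either length, among the genes with counts above the limit.

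Most of the receptors for these factors were scarcely read in the cancer cells themselves. Of 16 receptor genes, 7 reached 1 CPM in MIA PaCa-2 cells, 2 higher and 3 lower with CBC, and 5 in PANC-1 cells, 3 of them lower. The median log2 fold changes of those tested were -0.69 and -1.39, against -0.01 and 0.02 over all genes tested. The VEGF receptors KDR and FLT4 had at most 4 counts in any library, RAMP3 and the co-receptor KLB had 0 in all 4, and the adrenomedullin receptor CALCRL had 0 counts in MIA PaCa-2 and 6 and 17 in PANC-1 cells. FLT1, which binds VEGF-A and VEGF-B, had 10 counts without and 59 with CBC in MIA PaCa-2, and 0 in both PANC-1 libraries. These low genes and FGFR3 were singled out after their values were seen.

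The VEGF co-receptor NRP1 had 2.47 and 0.728 CPM in MIA PaCa-2 and 201 and 139 CPM in PANC-1 (PBS first in each pair). NRP2, a co-receptor of VEGF-C, had 0.225 and 0.0809 CPM in MIA PaCa-2 and 65.2 and 24.9 CPM in PANC-1. Both were thus far more abundant in PANC-1 cells under either treatment, with log2 differences between the lines of 6.81 for NRP1 (adjusted p = 1.29e-05) and 8.11 for NRP2 (adjusted p = 1.12e-05, edgeR quasi-likelihood test). FGFR1 differed by more than 2-fold in MIA PaCa-2, at 27.1 CPM with PBS and 60.2 with CBC, and had 70.8 and 71.0 CPM in PANC-1. FGFR3, a receptor tyrosine kinase for FGFs, was the 1 receptor gene of 8 tested that the test across lines called, lower with CBC by a log2 fold change of -1.89 (adjusted p = 0.0380, edgeR quasi-likelihood test).

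Among 13 genes for processing enzymes and direct targets, 5 reached 1 CPM in MIA PaCa-2 cells, 1 of them lower with CBC, and 6 in PANC-1 cells, 2 lower, with medians of 0.0028 and -0.49. IGFBP4, an IGF-binding protein cleaved by PAPP-A, the protease that stanniocalcins inhibit, fell in both lines, from 365 to 83.8 CPM in MIA PaCa-2 and from 177 to 39.3 CPM in PANC-1 cells. IGFBP4 was the 1 gene of the 6 tested that passed across lines (log2 fold change -2.14, standard error 0.20, adjusted p = 0.00559, edgeR quasi-likelihood test). PAPPA itself had at most 10 counts in any library. PAM, which amidates adrenomedullin, had 37.7 and 37.8 CPM in MIA PaCa-2 against 101 and 141 CPM in PANC-1. FURIN, a protease that cleaves the VEGF-C precursor, was at 51.1 and 53.9 CPM and at 185 and 114 CPM in the same libraries. PCSK7, another precursor protease, had log2 fold changes of -0.01 and -0.27, and LMF1, a factor needed for active lipoprotein lipase, of 0.13 and 0.63. LPL and FAP had 0 counts in all 4 libraries.

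The genes of the transcription factors known to act on these factors were then set beside them, from lists written with earlier results of these data known. Of 10 genes for HIF subunits and their regulators, 7 were tested in each line and none was past 2-fold, with medians of -0.09 and -0.02. EPAS1, which encodes HIF-2α, had 26 and 27 counts in MIA PaCa-2 and 5877 and 9892 in PANC-1 cells, and HIF1A had 4890 and 4268 and 3235 and 3785 counts. The lines thus differed in EPAS1 by a log2 difference of 8.02 (adjusted p = 5.97e-06, edgeR quasi-likelihood test). PANC-1 was the line with more VEGFB, ADM, ADM2, ANGPTL4, STC1 and STC2 but with less VEGFA and VEGFC. Any link of these genes to EPAS1 was not tested. The test of CBC across lines called 0 of the 7 HIF genes, with 0 at an unadjusted p under 0.05 and 0 by DESeq2.

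Of 26 HIF target genes outside the 10, 22 were tested in MIA PaCa-2 cells, 3 higher and 2 lower, and 25 in PANC-1 cells, again 3 higher and 2 lower. Their median log2 fold changes were -0.00028 and 0.23. Across lines 2 of 25 were called higher and 1 lower, 9 had an unadjusted p under 0.05, and DESeq2 called 5. HK2, a hexokinase, had a log2 fold change of 2.08 (adjusted p = 0.00657), while LDHA, lactate dehydrogenase A, had -1.56 (adjusted p = 0.00865, edgeR quasi-likelihood test). The glucose transporter gene SLC2A1 was the other one called higher, at 0.98 (adjusted p = 0.0388). NDRG1 had changes of 3.45 in MIA PaCa-2 and 0.90 in PANC-1 cells (log2) and did not pass the test (adjusted p = 0.0798).

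The list of 30 ATF4 target genes, all tested in both lines, included the gene ATF4 itself. Of these 30 genes, 24 were higher in MIA PaCa-2 and 23 in PANC-1 cells and none was lower. Their median log2 fold changes were 1.68 and 1.49. Across lines 24 were called higher and none lower, and DESeq2 called 26. ATF4 counted among the genes called by either test, with a value of 1.27 (adjusted p = 0.0229, edgeR quasi-likelihood test). Its own transcript was up with CBC by 1.57 (log2) in MIA PaCa-2, and by 0.95, short of the threshold, in PANC-1. GDF15, itself a secreted stress hormone, had 5 counts with PBS and 2221 with CBC in MIA PaCa-2, and 407 and 5400 in PANC-1 cells. NUPR1 and ATF3, stress-induced nuclear proteins, had log2 fold changes of 4.23 (adjusted p = 0.0144) and 4.60 (adjusted p = 0.00449, edgeR quasi-likelihood test).

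Of 16 genes for protein folding in the endoplasmic reticulum, 10 were higher in MIA PaCa-2 and 4 in PANC-1 cells, with medians of 1.26 and -0.28. Across lines 4 were called higher, among them the chaperone gene HSPA5 (log2 fold change 2.15, adjusted p = 0.00559) and HERPUD1, a factor of ER-associated degradation (2.44, adjusted p = 0.0188, edgeR quasi-likelihood test). For DNAJB9, a co-chaperone gene, the log2 values were 3.30 in MIA PaCa-2 and 0.41 in PANC-1 cells, without a call across lines (adjusted p = 0.149). The plot of gene lists by line shows these distributions.

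**Figure D4:**
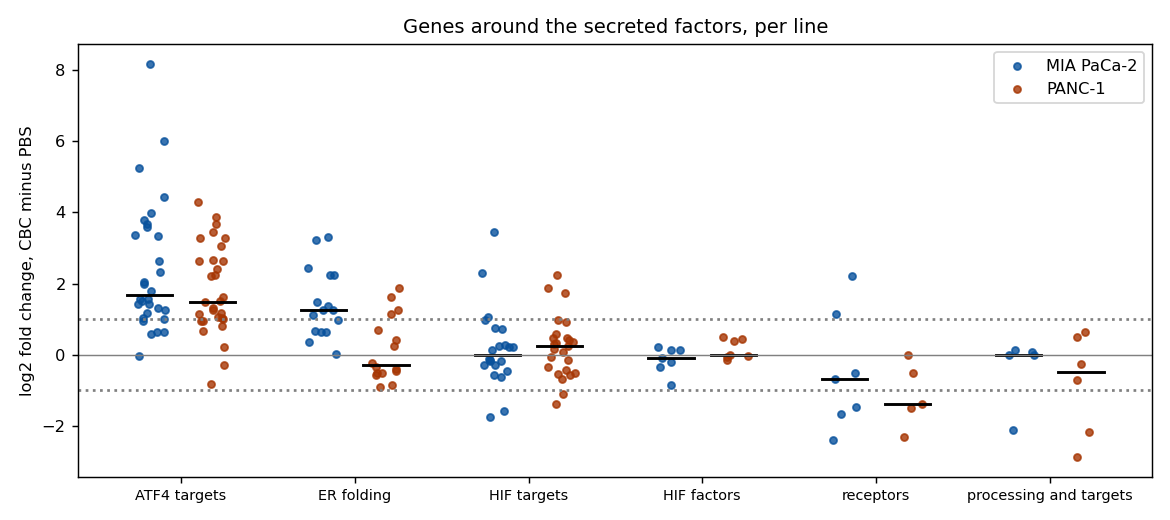
log2 fold change of CBC over PBS for the tested genes of 6 lists, 1 point per gene and line; black lines are medians and dotted lines mark a 2-fold change. Medians of the ATF4 targets, a list that includes ATF4, are 1.68 and 1.49, and those of the HIF targets -0.00028 and 0.23. The ER folding genes have a median above 0 in MIA PaCa-2 and below 0 in PANC-1 cells.

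Other genes near these factors moved less uniformly. Of 17 relatives of the 10 genes, such as the placental growth factor gene PGF, 2 were higher in MIA PaCa-2 cells and 1 lower in PANC-1 cells, among 5 and 4 tested, with medians of 0.68 and 0.22. FGF2, a heparin-binding angiogenic factor, had log2 fold changes of 1.01 and 0.65, and FGF5, another FGF, had 1039 and 460 counts in PANC-1. The test across lines called 0 of 6 relatives, with 3 at an unadjusted p under 0.05 and 1 called by DESeq2. Of 15 other angiogenic ligands, 3 were higher and 1 lower in MIA PaCa-2, and 1 higher and 3 lower in PANC-1 cells, with medians of 0.36 and -0.50 over 10 genes tested in each. CXCL8, an angiogenic chemokine, was the 1 gene of 11 called across lines (log2 fold change 1.73, adjusted p = 0.0168, edgeR quasi-likelihood test). CCN2, a matricellular protein, had 5 and 21 counts in MIA PaCa-2 but 5336 and 1837 in PANC-1 cells.

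Of 11 inhibitors of angiogenesis, 2 were lower in MIA PaCa-2 and 1 in PANC-1 cells, among 5 and 4 tested, and none was higher (medians -0.64 and -0.21). The test across lines called 0 of 5, with 1 at an unadjusted p under 0.05 and 0 by DESeq2. COL18A1, whose collagen yields endostatin, had log2 fold changes of -0.46 and -0.18, and the metalloprotease inhibitor gene TIMP2 -0.64 and -0.24. Of 16 genes for PPAR and FXR, nuclear receptors that act on ANGPTL4, FGF21 and FGF19, and their targets, 8 were tested in each line, with 1 higher and 1 lower in each and medians of 0.43 and -0.23. PLIN2, a lipid droplet protein, was the 1 called across lines (log2 fold change 1.27, adjusted p = 0.0249). Of 12 feedback genes of FGF receptor signalling, 2 were higher and 2 lower in MIA PaCa-2 and 3 higher in PANC-1 cells, with medians of 0.20 and 0.38. DUSP5, a phosphatase of ERK, was the 1 of 11 called across lines (2.53, adjusted p = 0.0123, edgeR quasi-likelihood test). In that test 7 of the 11 had an unadjusted p under 0.05, and DESeq2 called 2. ETV1 and SPRY1 on the same list were lower with CBC in both lines. Their log2 fold changes were -1.94 and -1.73 in MIA PaCa-2 and -0.59 and -0.71 in PANC-1 cells.

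The genes most like each factor were found by Euclidean distance between log2(CPM + 1) profiles, centred on the gene's mean, over the 4 libraries and 9714 protein-coding genes of at least 10 CPM. VEGFA lay nearest to TNFRSF10B, a death receptor gene (distance 0.27), and LURAP1L (0.28). ADM lay nearest to ZNF829 (0.20) and NTNG2 (0.22), ANGPTL4 to ZNF436 (0.09) and HIVEP2 (0.14), and STC2 to CRYBG1 (0.17) and ZNF185 (0.34). For ADM2 the nearest genes, SPNS2 and MERTK, were farther off, at 0.76 and 0.77. VEGFB and VEGFC changed little with CBC but differed between the lines. Their close neighbours were C17orf80 (0.03) and PACS1 (0.05) for VEGFB, and AHCY (0.04) and ADCY3 (0.06) for VEGFC.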

How the data were processed

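The authors sequenced RNA of both lines, MIA PaCa-2 and PANC-1, in 4 libraries. The authors used cutadapt 2.7 for trimming, STAR for alignment to GRCh38 and HTSeq for counts per Ensembl gene. The strand setting is not given in the sources used here. The deposited raw counts, with no filter on low values, were the input for every result. The authors also deposited a normalised signal per library, CPM on TMM-scaled library sizes from edgeR, which matched the counts to a relative difference of 6.84e-09 at most. Groups came from the sample titles. The 10 genes and all gene lists were chosen with earlier results of these data known.

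Of 58233 identifiers, 57392 matched a symbol; positions and lengths came from GENCODE release 44 on GRCh38. Log2 fold changes, TMM over 4 libraries and the quasi-likelihood test used edgeR 4.0.16 in R 4.3.3, with Benjamini-Hochberg adjustment over all genes kept by filterByExpr. Across genes, the deviations from the treatment means of libraries of 1 line correlated at r = 0.91. That value restates that the lines differ under both treatments, so it cannot check a pairing of cultures. Intervals are exact binomial (Clopper-Pearson, 95%). Standard errors were worked back from the quasi-likelihood test, as the absolute log2 fold change over the square root of its F statistic. DESeq2 1.42.0, other scalings, filters and prior counts were tried as alternatives. From each list the text names at most 3 genes whose mean reached 10 CPM, those with the largest mean change. It also names every receptor or processing gene at that level. Genes of lower level and ATF4, FGF5, FURIN, EPAS1, HIF1A, SLC2A1, CCN2 and DNAJB9 were named after their values were seen where the rule did not take them. With 1 residual degree of freedom, each gene's variance in the quasi-likelihood test is drawn largely from all the genes tested. The residual is the difference of the CBC change between the lines. P-values thus do not measure a spread between replicates, and nothing ties these libraries to separate cultures within a line.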

Additional observations from a re-analysis of the deposited data

Results flagged for a closer look

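2 genes moved in opposite directions in the 2 lines, and the difference was not tested, since each line had 1 library per condition. For ADM the log2 fold changes were 1.40 in MIA PaCa-2 and -0.49 in PANC-1 cells. ANGPTL4 had 0.79 in MIA PaCa-2 and -0.39 in PANC-1 cells. All 4 counting intervals lay on their own side of 0, and 30.1% of genes tested in both lines had opposite signs.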

How the results depend on the processing

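Of the alternatives, the filter on low counts and the term for cell line or treatment mattered most. With at least 1 CPM required in both libraries, 2 genes were called in MIA PaCa-2 cells in place of 4 (VEGFA and ADM), and 3 in place of 6 between the PBS libraries (VEGFC, ADM and ANGPTL4), since fewer genes were tested. Under the other scalings, the smaller prior count, the deposited values and the interval past 2-fold, the called genes were the same in each line and at baseline. Without a filter ADM2 joined them in MIA PaCa-2 cells. For CBC across lines, 0 of the 8 tested genes were called without the block for cell line, where 1 had an unadjusted p under 0.05. Without a filter 4 were called (VEGFA, ADM2, STC1 and FGF21). The other scalings and DESeq2 called VEGFA and ADM2. Without the block for cell line ADM turned to a log2 fold change of -0.29 and ANGPTL4 to -0.041, neither called for CBC in any fit. Between lines, 3 genes were called without treatment as a term in place of 8. Over all genes, calls without a filter were 5804 in MIA PaCa-2 (2859 with it), 4898 in PANC-1 (2079) and 10279 at baseline (6202), and at least 1 CPM in both PBS libraries left 3591. The test of CBC called 771 genes, and 0 without the block for cell line (354 at an unadjusted p under 0.05). It called 2063 without a filter, and DESeq2 called 1311. The test between lines called 7652, or 4251 without treatment as a term. Scaling by library totals moved the median difference between the lines by -0.13 (log2). Depth limited FGF19, FGF21 and, in MIA PaCa-2 cells, ADM2 and STC2.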
